A study of Drosophila melanogaster with 15 samples.

Results

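Rab proteins are small GTPases that label the membranes of the secretory and endocytic pathways. The genes examined here were those whose FlyBase symbol is Rab followed by a number, or RabX followed by a digit, and 27 of the 17558 genes in the aging count table met this rule. The symbol Rab1 matched no row by its current identifier, so Rab1 was not analysed here. The rule used names alone and no measured value.

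The libraries were made from nuclear RNA of photoreceptors of male Drosophila melanogaster at 5 ages, which were days 10, 20, 25, 30 and 40 after eclosion. The flies, labelled WT, carried UAS-GFP-Msp300KASH and rh1-GAL4 in a w background with ry[506], at every age, and were kept at 25 °C on a 12:12 light and dark cycle. The Gal4 driver places a GFP-tagged nuclear membrane protein in the outer photoreceptors, and the tagged nuclei were pulled from head homogenates with an antibody to GFP. Each library came from many pooled flies, and the study found the driver active in antennal sensory neurons too. Days 10, 20, 25 and 40 had 3 libraries each and day 30 had 2, because the study discarded the remaining day 30 library for poor mapping. These are bulk samples, so fewer cells of a type and less RNA per cell cannot be told apart.

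A Rab switches between a GTP-bound form, which sits on a membrane and recruits effectors such as motors and tethers, and a GDP-bound form that a GDP dissociation inhibitor (GDI) can lift back into the cytosol. Exchange factors (GEFs) load GTP, GTPase-activating proteins (GAPs) end the active state, and an escort protein with a geranylgeranyl transferase adds the lipid that holds the Rab to the membrane. In fly photoreceptors new rhodopsin passes from the endoplasmic reticulum through the Golgi to the light-sensing rhabdomere with the help of Rab1, Rab6 and Rab11, and rhodopsin taken up from the rhabdomere after illumination travels through Rab5 and Rab7 endosomes to lysosomes.

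The libraries held 6213255 to 19819118 read pairs assigned to genes. A count of 3 then equals 0.148 to 0.463 CPM (CPM is the count scaled to a common library total, here with TMM factors, which take most genes as unchanged). Photoreceptor markers were abundant. The 15 markers listed for outer photoreceptors summed to between 89598 and 159601 CPM per library. The sums were 3569 to 10441 CPM for 4 inner photoreceptor markers and 813 to 3861 CPM for 5 pigment cell markers. They were 540 to 844 CPM for 7 glial markers, 211 to 756 CPM for 5 muscle markers and 20.8 to 62.9 CPM for 6 mechanosensory neuron markers. The lists are not exclusive to their cell type, since the paper cites Arr2, inaD, trp, trpl, Rh3, Rh5 and Rh6 as expressed in the auditory organ too.

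Nearly all Rab genes were detected at every age in this nuclear RNA, which is enriched for photoreceptors but also held markers of other cells. Of the 27 genes, 26 had at least 3 counts in each of the 14 libraries, and these 26 were also the ones that passed the filter for testing (CPM over 1 in at least 3 libraries). The exception was RabX2, a single-exon gene on the X chromosome, which had counts in 1 library at day 25 and 1 at day 30 and averaged under its floor of 3 counts. The genes are spread over the genome, with 8 on X, 5 on each of 2L, 2R and 3L, and 4 on 3R.

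Level was compared between genes as CPM per kilobase of exon, averaged over the 14 libraries. Rab5, the Rab of early endosomes, stood at the top with 130.6 ± 14.2 CPM per kilobase (SD, n = 14) and made up 18.7% of the summed level of the 27 genes. The order and this share leave out Rab1, whose counts could change both and may be in the table under an older identifier. Rab3, which acts on synaptic vesicles, followed at 69.0 ± 7.87 CPM per kilobase, and Rab7, the Rab of late endosomes and lysosomes, at 67.2 ± 7.71 CPM per kilobase. Rab5 was above Rab3 in 14 of 14 libraries and their ranges of 1 SD did not overlap, whereas Rab3 was above Rab7 in only 8 of 14.

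Below these came Rab2 (52.4 CPM per kilobase), Rab14 (49.3), Rab32 (45.5), Rab4 (39.2), Rab11 (32.4), Rab9 (26.6), Rab10 (25.7), Rab8 (22.0), Rab6 (19.9), RabX4 (14.7), Rab35 (12.8), Rab19 (12.3), Rab26 (10.8) and RabX1 (10.3). The lowest group on this scale was Rab21 (9.38), Rab30 (9.29), Rab18 (9.19), Rab39 (7.98), Rab40 (7.97), RabX6 (6.0), Rab27 (3.34), RabX5 (2.27) and Rab23 (1.92). The 26 tested genes spanned a 68.2-fold range. Of the 26 neighbouring pairs in the whole order, RabX2 included, 22 had overlapping ranges of 1 SD. The 4 steps that did not overlap were Rab5 over Rab3, Rab7 over Rab2, RabX6 over Rab27 and Rab23 over RabX2. Both rhodopsin transport Rabs in the table sat in the middle of the order, Rab11 above Rab6, with Rab5 and Rab7 of the uptake route well above them.

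**Figure D1:**
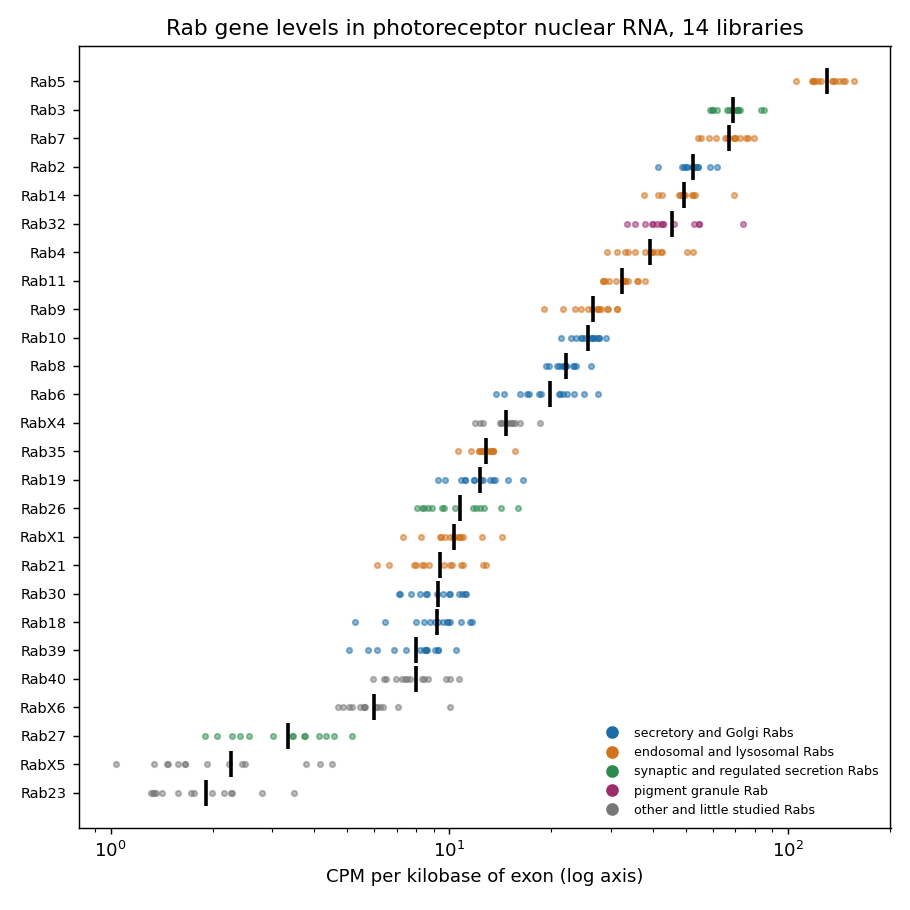
Level of 26 Rab genes in CPM per kilobase of exon on a log axis, with 1 point per library (n = 14), the mean as a black bar and colours for the role of each gene (RabX2, which was at 0 counts in most libraries, is not drawn). Rab5 stands clear at 130.6 CPM per kilobase, while most neighbours overlap down to Rab23 at 1.92.

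The comparison of ages asked which Rab genes differed as the flies grew older. In the age test, which fits a curve of second degree over the ages to all 14 libraries with edgeR's quasi-likelihood test, 1 of the 26 Rab genes passed an adjusted p of 0.05, Rab32, and it was lower at day 40 than at day 10. Among all 10678 genes tested, 8.35% passed in either direction and 3.44% were lower, and the share of Rab genes called was 3.85%, below the background in either direction and close to that for lower genes. At an unadjusted p under 0.05 there were 5 Rab genes (19.2%), against 24.1% of all genes. The median log2 change of the Rab genes between the fitted values at days 40 and 10 was 0.01, and so was that of all genes.

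Between day 40 and day 10, 2 Rab genes passed, Rab26 and Rab32, both lower at day 40, beside a background of 10.4% of all genes in either direction and 4.63% lower. With edgeR no Rab gene was called higher, where 5.76% of all genes were, while DESeq2 called Rab6 higher (adjusted p = 0.0387), as did edgeR with no filter (0.0294) or with library size alone (0.0364). At an unadjusted p under 0.05 there were 5 Rab genes (19.2%), beside 25% of all genes. The median log2 change was 0.03 for the 26 Rab genes, with 16 above 0 and 10 below, and 0.01 for all genes. The libraries of the 2 ages did not overlap for 7 Rab genes (26.9%), a share near the 28.6% of all genes. Rab6 and RabX4 were the 2 above day 10 in every day 40 library (7.69%, beside 15.6% of all genes), and Rab3, Rab4, Rab7, Rab26 and Rab32 were the 5 below (19.2%, beside 12.9% of all genes). The 95% interval of the log2 change lay within 2-fold either way for 24 of the 26 genes, and the exceptions were Rab26 and the sparsely counted RabX5.

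**Figure D2:**
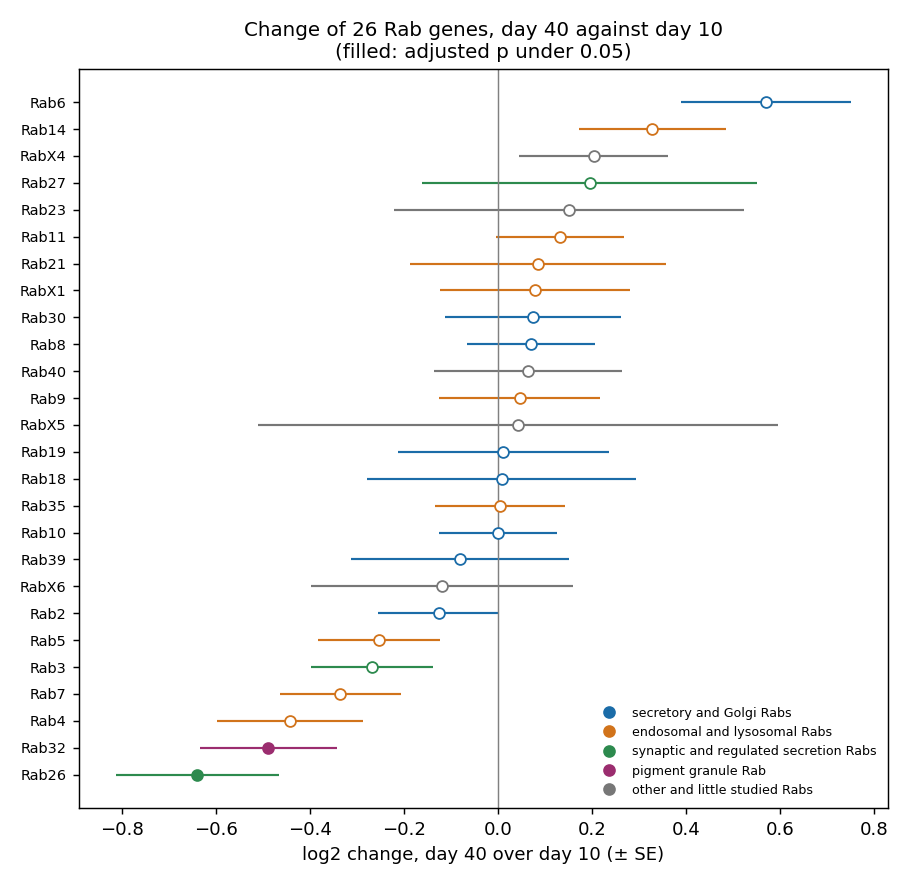
Log2 change of 26 Rab genes, day 40 over day 10, with its SE as a bar and colours for the role of each gene, where filled points passed an adjusted p of 0.05. Rab26 at -0.64 and Rab32 at -0.49 are the filled points, and Rab6 lies farthest to the right at 0.57.

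At the intermediate ages fewer genes passed in the whole table. Day 25 against day 10 gave 1 Rab gene, again Rab32 and lower, beside 0.974% of all genes called in either direction and 0.262% called lower. Day 30 against day 10 gave 0 with edgeR, beside 0.871% of all genes called, and 3 (11.5%) at an unadjusted p under 0.05, beside 13.7% of all genes. Day 20 against day 10 gave 0 with edgeR, beside 0.00937% of all genes called, and 1 (3.85%) at an unadjusted p under 0.05, beside 8.1% of all genes. Day 40 against day 30 gave 0 with edgeR, beside 1.11% of all genes called, and 0 at an unadjusted p under 0.05, beside 9.96% of all genes. DESeq2 called 1 Rab gene, Rab32, at day 30 against day 10, beside 376 of all 10678 genes. It called 0 in the day 20 and day 40 against day 30 comparisons, beside 49 and 276 of all genes.

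**Figure D3:**
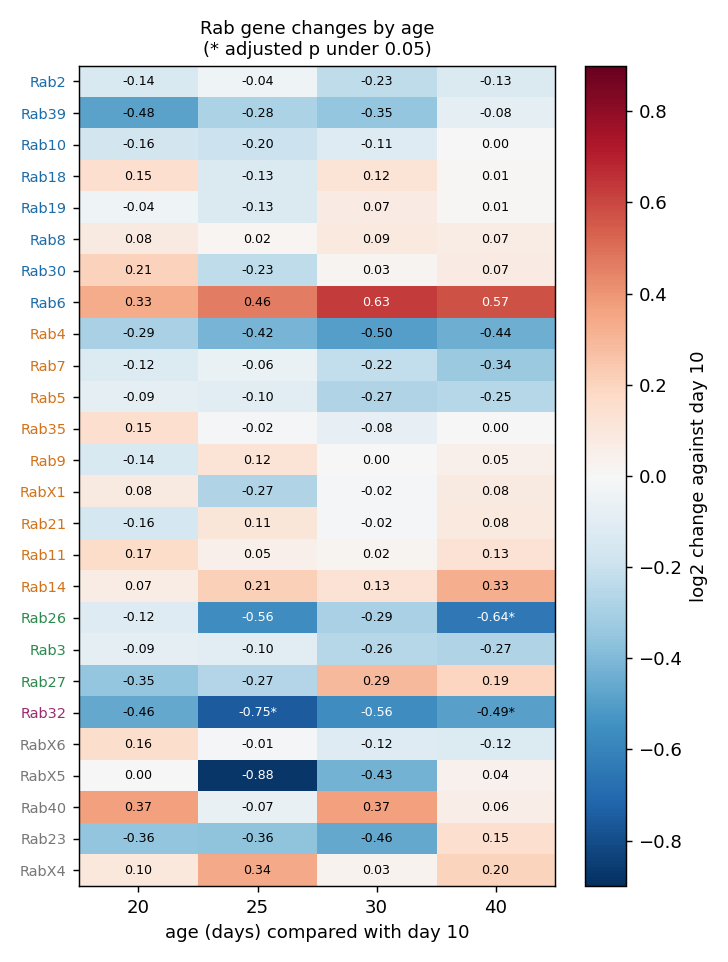
Log2 change of 26 Rab genes at days 20, 25, 30 and 40 (columns), each against day 10, with red for higher and blue for lower, names coloured by role and an asterisk for an adjusted p under 0.05. Rab32 is below 0 in all 4 columns with its lowest value at day 25 (-0.75), and Rab6 is above 0 in all 4, from 0.33 at day 20 to 0.63 at day 30.

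Rab32, known in flies as lightoid, is needed to form the pigment granules of the eye. It lies on chromosome 2R (BDGP6, 9177864 to 9186342, minus strand). At day 10 its 3 libraries had 222.5, 222.7 and 300.0 CPM. At day 20 they had 172.2, 154.9 and 215.7 CPM, and at day 25 they had 137.1, 162.3 and 144.0 CPM. Every library of days 20 to 25 was thus below the lowest at day 10. The 2 libraries of day 30 had 163.3 and 174.1 CPM, and those of day 40 had 175.1, 188.8 and 167.4 CPM. The level was lowest at day 25, stayed below day 10 afterwards, and none of the 11 later libraries overlapped with day 10.

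For Rab32 the log2 change was -0.46 at day 20 (adjusted p = 0.44), -0.75 ± 0.15 at day 25 (SE, adjusted p = 0.0199), -0.56 at day 30 (adjusted p = 0.124) and -0.49 ± 0.15 at day 40 (SE, adjusted p = 0.0406), each against day 10. In the age test its adjusted p was 0.00761, and Rab32 still passed without any 1 of the 14 libraries (adjusted p 0.00423 to 0.0489). The age call was lost with a linear term alone (adjusted p = 0.0884) and with library size as the only scaling (0.0856). The day 40 call was less firm, since it was lost when any 1 of 11 libraries was left out (adjusted p 0.0511 to 0.163, log2 change -0.32 without day 10 library 3), that is, any library other than those of day 20. The day 25 call was lost without day 10 library 1, day 25 library 1 or day 25 library 3.

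Rab26 acts on synaptic vesicles, and in mammalian neurons it has been linked to their clearance by autophagy. It is the Rab gene with the longest span, 16254 bp on chromosome 3L (BDGP6, 21318774 to 21335027, plus strand). An antisense RNA overlaps 145 bp of its exons on the opposite strand, which the strand-specific counting keeps apart. Its 3 libraries at day 40 had 34.9, 38.7 and 37.6 CPM, against 41.5, 62.0 and 69.6 CPM at day 10. The day 40 libraries lay close together and below all 3 of day 10, which were widely spread. Between these ages it had 53.6, 55.0 and 51.3 CPM at day 20, 36.7, 36.2 and 45.3 CPM at day 25, and 52.3 and 42.1 CPM at day 30. Levels at day 30 overlapped with those of days 10, 20 and 25, so the decline was not even over the ages.

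The log2 change of Rab26 at day 40 against day 10 was -0.64 ± 0.17 (SE, edgeR adjusted p = 0.0255), and in the age test its adjusted p was 0.0612. The day 40 call was lost without day 10 library 2 (adjusted p = 0.0912), day 10 library 3 (0.0977), day 40 library 1 (0.0804), day 40 library 2 (0.0599) or day 40 library 3 (0.0657). In the age test Rab26 passed without day 10 library 1 (0.0191) or day 30 library 1 (0.0434).

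Markers of other cells also differed with age. Of 7 glial markers 2 were called lower in the age test, nrv2 and alrm, and the other 5 were not called, with moody at a log2 change of 0.28 at day 40 against day 10. The 7 summed to 577 to 639 CPM at day 40, against 626 to 844 CPM at day 10, ranges that overlap. None of the 5 pigment cell markers was called in the age test by edgeR, DESeq2 or limma-voom, with 2 at an unadjusted p under 0.05, and their summed level was 949 to 1765 CPM at day 40, against 923 to 1579 CPM at day 10. Most of that sum is white, of which the UAS transgene carries a marker copy. Without white the other 4 summed to 218 to 230 CPM at day 10, 213 to 217 CPM at day 25, where Rab32 was lowest, and 193 to 302 CPM at day 40. At day 25 against day 10 these 4 went both ways, and none was called. The brown gene (bw) had a log2 change of -0.40 (edgeR unadjusted p = 0.0315, adjusted p = 0.297). Those of st and santa-maria were -0.24 each. That of ninaB, the most abundant of the 4 with a mean of 129 CPM at day 10, was 0.08. All 7 glial and all 5 pigment cell markers were above 0 in every library. Of 5 muscle markers 2 were called higher in the age test, Act57B and Mlc2. At day 40 against day 10, 3 were called higher by edgeR, DESeq2 and limma-voom. These were Act57B, Mlc2 and Tm2, with log2 changes of 1.81, 1.07 and 0.90. The 5 summed to 569 to 756 CPM at day 40, against 211 to 474 CPM at day 10. Of the 4 tested mechanosensory neuron markers nompB was called higher, of 5 fat body and female markers Yp1 was, and of 15 outer photoreceptor markers Gbeta76C was called lower, all in the age test. The mechanosensory neuron list summed to 42.8 to 62.6 CPM at day 40, against 24.3 to 40.8 CPM at day 10. Its genes went both ways at day 40, with log2 changes of 2.58 for nompB, 0.34 for iav, -1.08 for nompA and -0.42 for nompC. DESeq2 and limma-voom also called nompA in the age test. The fat body and female list summed to 151 to 385 CPM at day 40, against 123 to 191 CPM at day 10. Yp1 had 7.89, 0.94 and 57.3 CPM at day 40, and limma-voom did not call it. Lsp2 and fat-spondin of that list were lower at day 40 (log2 change -0.73 and -0.24), while Yp2 and Yp3 were higher. The part of these cells in the levels of the Rab genes and their regulators was not tested. The ratio of pairs on no annotated feature to pairs on genes also differed with age, at 42.4 to 56.4 per 100 in day 40 libraries, against 60.7 to 103 per 100 at day 10. With that ratio as a covariate, Rab32 had an adjusted p of 0.0135 in the age test. At day 40 against day 10 Rab32 then had a log2 change of -0.73 (adjusted p = 0.0825) and Rab26 had -0.91 (adjusted p = 0.0728), so both calls were lost while both changes were larger than without the covariate.

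**Figure D4:**
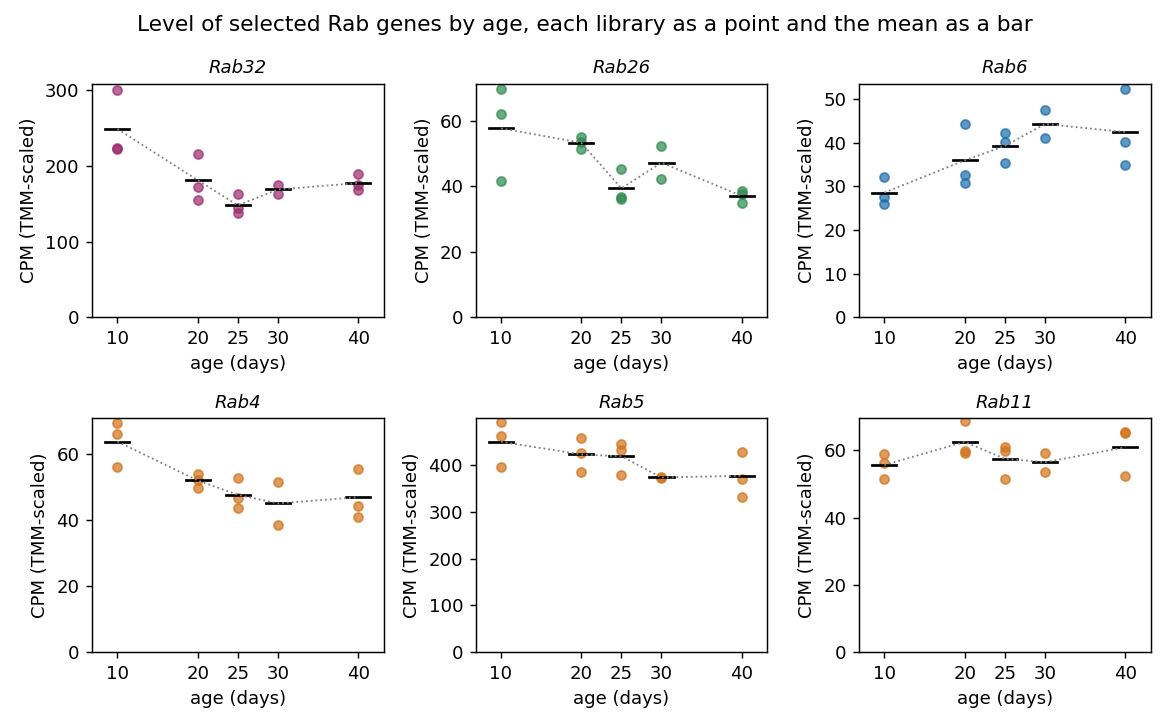
CPM of 6 Rab genes (panels, each axis from 0) against age in days, with 1 point per library, a black bar for the mean of each age and a dotted line joining the means, coloured by role. Rab32 is highest in the day 10 libraries (222.5 to 300.0 CPM), Rab6 is lowest there (26.0 to 32.2 CPM), and the points of Rab11 overlap at all ages.

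Rab6 and Rab11 are the rhodopsin transport Rabs of the table, and neither was called by edgeR in the age test or at day 40 against day 10, where DESeq2 called Rab6 in both and 1 of the 2 genes had an unadjusted p under 0.05. Rab6, which works in the Golgi and whose gene is a single exon on chromosome 2L, had 40.2, 52.2 and 34.9 CPM at day 40, against 32.2, 26.0 and 27.6 CPM at day 10. All 3 day 40 libraries lay above the highest of day 10. It had 44.4, 30.8 and 32.7 CPM at day 20, 35.5, 40.1 and 42.3 CPM at day 25, and 47.4 and 41.2 CPM at day 30. From day 25 onwards every library was above the highest of day 10. Its log2 change at day 40 was 0.57 ± 0.18 (SE, 95% interval 0.19 to 0.95), with an adjusted p of 0.0528 there and 0.0507 in the age test. Rab6 passed the threshold in 8 of 24 alternative settings of the age test and in 6 of 24 of the day 40 comparison, and its log2 change was above 0 in all of them. The settings that called it include leaving out day 20 library 1 (adjusted p = 0.0298 in the age test and 0.0317 at day 40) or day 40 library 3 (0.0326 and 0.0412).

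Rab11, which acts at recycling endosomes and carries vesicles to the base of the rhabdomere, had 65.1, 52.3 and 65.5 CPM at day 40, against 59.1, 51.6 and 56.3 CPM at day 10. These ranges overlap. Its log2 change was 0.13 ± 0.14 (SE, adjusted p = 0.607), with a 95% interval of -0.16 to 0.42. The highest Rab11 level of any library was 68.7 CPM at day 20.

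Rab6 was the only one of the 8 secretory and Golgi Rabs with an unadjusted p under 0.05 in the age test or at day 40 against day 10, and edgeR and limma-voom called none of the 8. Their median log2 change at day 40 against day 10 was 0.01. Rab2, which acts between the endoplasmic reticulum and the Golgi, averaged 87.7 ± 4.73 CPM at day 40 and 95.8 ± 8.78 CPM at day 10 (SD, n = 3 each, log2 change -0.13). Rab8, of transport from the Golgi to the cell surface, averaged 51.8 ± 2.54 CPM at day 40 and 49.3 ± 1.39 CPM at day 10. Rab10, which in fly epithelia directs basement membrane secretion, averaged 64.0 ± 1.52 CPM at day 40 and 64.1 ± 3.42 CPM at day 10. Its 95% interval, -0.27 to 0.26 on the log2 scale, was the tightest of the Rab genes.

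The other secretory and Golgi Rabs had low counts and small differences. Rab18, linked to lipid droplets and the endoplasmic reticulum, averaged 7.53 CPM at day 40 and 7.52 CPM at day 10. Rab19 averaged 13.9 CPM at day 40 and 13.8 CPM at day 10, and Rab30, a Golgi Rab, averaged 19.8 CPM at day 40 and 18.8 CPM at day 10. Rab39 averaged 12.3 CPM at day 40 and 13.1 CPM at day 10, with its lowest mean, 9.33 CPM, at day 20. For these 4 genes the libraries of both ages overlapped.

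Among the 9 endosomal and lysosomal Rabs, edgeR and limma-voom called none in the age test or at day 40 against day 10, with 2 at an unadjusted p under 0.05 in each, Rab4 and Rab7. DESeq2 called Rab4 in the age test and both at day 40. Rab4, of fast recycling from early endosomes, had 55.5, 44.3 and 41.1 CPM at day 40, against 66.2, 69.3 and 55.9 CPM at day 10. The highest day 40 library lay just under the lowest day 10 library. Rab4 had 49.8, 52.2 and 54.1 CPM at day 20, 43.6, 52.7 and 46.7 CPM at day 25, and 38.4 and 51.7 CPM at day 30. Every later library that was analysed was thus under the lowest of day 10, 55.9 CPM. The discarded day 30 library was above it, at 67.5 CPM by library size alone (35 counts). The log2 change at day 40 was -0.44 ± 0.16 (SE, adjusted p = 0.0798), and in the age test the adjusted p was 0.0548. Without day 40 library 1 Rab4 passed at day 40 (adjusted p = 0.0427) and in the age test (0.0298), and without day 10 library 3 it also passed at day 40 (0.0491) and in the age test (0.0327).

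Rab7 had 112.2, 92.3 and 94.3 CPM at day 40, against 118.4, 135.5 and 123.1 CPM at day 10. The groups did not overlap, and the log2 change was -0.34 ± 0.13 (SE, adjusted p = 0.106). Rab5 had 370.4, 332.8 and 428.6 CPM at day 40, against 492.0, 463.1 and 395.4 CPM at day 10. Here 1 library of day 40 lay within the range of day 10, and the log2 change was -0.25 ± 0.13 (SE, adjusted p = 0.234). Rab4, Rab5 and Rab7 had negative log2 changes at days 20, 25, 30 and 40 against day 10, and these comparisons share their day 10 libraries.

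Rab14, which acts between endosomes and the Golgi and in phagosome maturation, had 89.4, 91.3 and 128.4 CPM at day 40, against 90.7, 77.0 and 79.0 CPM at day 10. Only day 40 library 3 stood clear of the rest, since the other 13 libraries ranged from 69.7 to 98.4 CPM. The log2 change was 0.33 ± 0.16 (SE, adjusted p = 0.202). Rab9, of the route from late endosomes back to the Golgi, averaged 43.8 CPM at day 40 and 42.4 CPM at day 10. Rab35, of recycling to the plasma membrane, averaged 44.9 CPM at day 40 and 44.8 CPM at day 10. Rab21, an early endosomal Rab, averaged 12.3 CPM at day 40 and 11.5 CPM at day 10, and RabX1, an endosomal Rab known as chrowded, averaged 18.3 CPM at day 40 and 17.3 CPM at day 10. The libraries of both ages overlapped for Rab9, Rab35, Rab21 and RabX1.

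Of the 3 Rabs of synapses and regulated secretion, Rab26 fell at day 40 and the other 2 did not pass. Rab3 had 222.0, 232.5 and 252.3 CPM at day 40, against 312.0, 271.3 and 268.4 CPM at day 10. The groups did not overlap, yet the log2 change of -0.27 ± 0.13 (SE, adjusted p = 0.208) was not past the threshold. At day 20 a single library had 318.9 CPM, the highest of any, and another had 223.8 CPM, close to the lowest. Rab27, which acts in exocytosis of secretory granules, averaged 6.11 ± 2.18 CPM at day 40 and 5.32 ± 0.56 CPM at day 10 (SD, n = 3 each).

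The remaining Rabs are less studied in flies or act outside these routes, and of the 5 tested, 0 were called by edgeR, DESeq2 or limma-voom in the age test or at day 40 against day 10, with 0 at an unadjusted p under 0.05. Rab23, a regulator of planar cell polarity, averaged 5.45 CPM at day 40 and 4.84 CPM at day 10, and Rab40, whose protein carries a SOCS box, averaged 13.0 CPM at day 40 and 12.5 CPM at day 10. RabX4 had 21.0, 22.2 and 21.6 CPM at day 40, against 17.4, 17.8 and 20.9 CPM at day 10, with a log2 change of 0.20 ± 0.16 (SE, adjusted p = 0.462). Its exons overlap those of Kaz on the same strand, by 131 bp in the pair of exons that overlaps most, so its counts are uncertain. RabX5 averaged 2.45 ± 1.23 CPM at day 40 and 2.42 ± 0.99 CPM at day 10, and its 95% interval for the log2 change ran from -1.12 to 1.21, so that a change of under 2-fold was not detectable at this depth. RabX6 averaged 7.10 CPM at day 40 and 7.75 CPM at day 10.

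The proteins that act on Rabs were followed in 6 lists of 78 genes, of which 73 matched a row and all 73 were tested. In both the age test and at day 40 against day 10, 2 of the 73 were called, both higher, and none lower by edgeR. DESeq2 called 7 in the age test, 3 higher and 4 lower, and 4 at day 40, 3 higher and 1 lower. With library size as the only scaling edgeR called 6 in the age test and 5 at day 40, all higher, and without day 10 library 3 it called 2 in the age test, both lower (Rip11 and didum). The edgeR backgrounds were 4.92% of all genes called higher and 3.44% called lower with age. Of all 10678 genes DESeq2 called 722 higher and 764 lower in the age test, and 730 and 847 at day 40. The median log2 change of the 73 genes at day 40 was 0.04, against 0.01 for all genes.

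The first was RabGGTa, the alpha subunit of the geranylgeranyl transferase that lipid-modifies Rabs, in a list of 4 genes of the membrane cycle. It had 30.9, 33.7 and 30.6 CPM at day 40, against 22.6, 17.7 and 16.6 CPM at day 10. Every day 40 library was above every day 10 library, and the means at days 20, 25 and 30 were 24.0, 25.2 and 25.7 CPM. The log2 change at day 40 was 0.74 ± 0.19 (SE, adjusted p = 0.0183, and 0.0333 in the age test). The day 40 call for RabGGTa was lost without day 10 library 2 (0.0707) or day 40 library 2 (0.0517), and when the no-feature ratio entered as a covariate (0.182), where its log2 change was 0.87. Over all 24 alternatives that change stayed between 0.66 and 0.88. Its age call was lost without any 1 of 5 libraries (adjusted p 0.0625 to 0.0995), which were day 10 libraries 2 and 3 and the 3 of day 40. The other 3 genes of the list were not called: RabGGTb, the beta subunit, had a log2 change of 0.16, the escort protein gene Rep 0.36 and the single GDI gene, Gdi, 0.13.

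The second was Sec5, a subunit of the exocyst, the tethering complex that binds Rab11 through its Sec15 subunit and that delivers rhodopsin vesicles to the rhabdomere. It had 48.9, 42.9 and 60.9 CPM at day 40, against 34.2, 32.2 and 34.4 CPM at day 10. The groups did not overlap, and the log2 change was 0.60 ± 0.16 (SE, adjusted p = 0.0278, and 0.0467 in the age test). The day 40 call for Sec5 was lost without day 10 library 1 (0.0737), day 10 library 2 (0.0939) or day 40 library 3 (0.141), with the libraries of the 2 ages alone (0.063), and with the no-feature ratio as a covariate (0.39), where its log2 change was 0.55. In the age test Sec5 also missed the threshold with that covariate (0.308), with DESeq2's size factors (0.0578), with limma-voom (0.0542) and with the replicate block (0.0679). Its age call was lost too without any 1 of 11 libraries (adjusted p 0.0527 to 0.237), that is, any but day 20 library 2, day 30 library 1 and day 40 library 2. The other 10 genes of that list, which holds the rest of the exocyst, the Rab11 partners Rip11 and nuf, and the myosin V gene didum, were not called by edgeR, while DESeq2 also called Rip11 in the age test.

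None of the 21 exchange factors, 12 GTPase-activating proteins, 13 endosomal and lysosomal effectors or 12 Golgi and secretory effectors was called by edgeR or limma-voom in the age test or at day 40 against day 10. In the age test 1 exchange factor, 0 GTPase-activating proteins, 4 endosomal and lysosomal effectors and 3 Golgi and secretory effectors had an edgeR unadjusted p under 0.05. The share of all genes at that threshold was 24.1%. DESeq2 called 1, 0, 1 and 2 genes of these lists in the age test, beside 1486 of all 10678 genes. At day 40 the edgeR unadjusted counts were 1, 1, 4 and 2 in the same order, beside 25% of all genes. DESeq2 called 1, 0, 0 and 1 there, beside 1577 of all genes. In these 4 lists the median log2 change at day 40 lay between -0.02 and 0.06. The GEF of Rab32, claret (ca), averaged 144 CPM at day 40 and 165 CPM at day 10, with a log2 change of -0.20 ± 0.11 (SE, adjusted p = 0.271). Crag, whose product loads Rab11 in photoreceptors, averaged 257 CPM at day 40 and 264 CPM at day 10, with a log2 change of -0.03 ± 0.11 (SE, adjusted p = 0.887). Regulators that were not called are named here for their known role and not for a result.

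**Figure D5:**
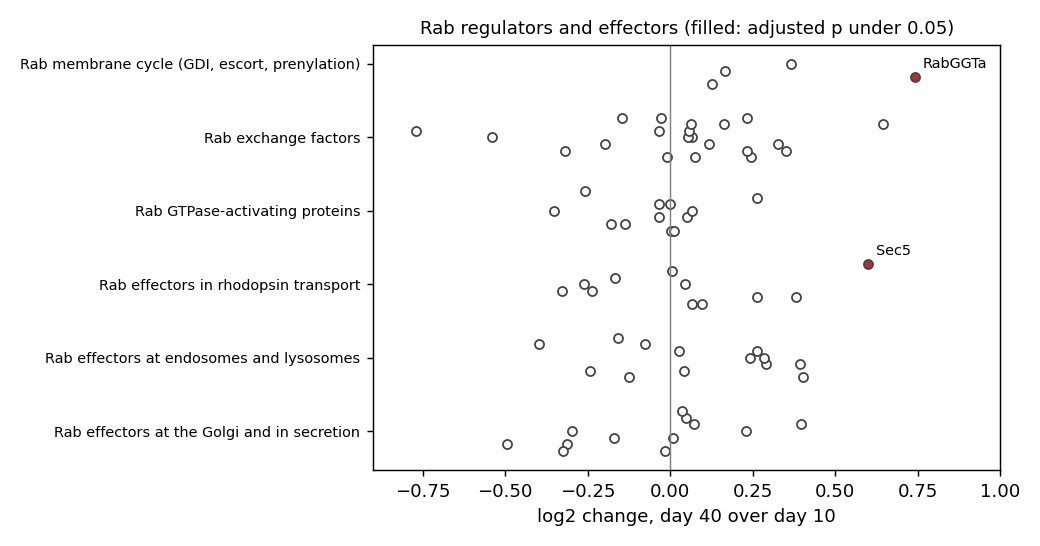
Log2 change, day 40 over day 10, of 73 regulators and effectors of Rabs, with 1 point per gene, 1 row per list and red for an adjusted p under 0.05. The points of every list lie on both sides of 0 except the membrane cycle, and RabGGTa (0.74) and Sec5 (0.60) are the red points.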

How the data were processed

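The authors trimmed reads with Trimmomatic, aligned them with TopHat to BDGP6 and counted read pairs per gene with HTSeq in its strand-specific mode, and they deposited raw counts for 15 libraries. A filtered count table and its CPM, which the authors deposited too, served only as an alternative gene filter or were not used. Column names give an age and a number, and columns numbered 1 and 2 were mapped to their age alone. Replicates are biological per the labels. The 27 members and all gene lists were chosen with earlier results of these data known.

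The counts of 14 libraries went into edgeR 4.0.16, run under R 4.3.3 (glmQLFit and glmQLFTest, TMM scaling, Benjamini-Hochberg adjustment over all 10678 genes with CPM over 1 in at least 3 libraries, threshold 0.05). The age test took a linear and a squared term together, with 1 direction read from the fitted values at days 40 and 10. Contrasts came from a fit with a mean for each of 5 ages. Intervals are approximate 95% intervals from the fit's SE. The code was tested on simulated data. Symbols, positions and lengths came from the BDGP6.54 annotation (17252 of 17558 identifiers matched), the same assembly with later gene models. Every Rab gene is named, and regulators are named when called in the age test or at day 40 against day 10, with some others named for their known role. DESeq2 1.42.0 and limma-voom (limma 3.58.1) were alternatives, with other scalings, filters, covariates, a replicate block, and each library left out in turn.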

Additional observations from a re-analysis of the deposited data

Results flagged for a closer look

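The discarded day 30 library, number 3, holds counts that no comparison used. It had 518520 gene counts in all, so a count of 3 equals 5.79 CPM by library size, and 25 of the 27 Rab genes had at least 3 counts there. Rab32 had 103 counts (198.6 CPM), Rab26 had 33 (63.6 CPM), Rab6 had 27 (52.1 CPM), Rab4 had 35 (67.5 CPM) and Rab5 had 177 (341 CPM) in this library. RabX2 and RabX5 were at 0. These values were scaled by library size alone and cover counting error only.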

How the results depend on the processing

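Of the settings tried, none turned a called Rab gene the other way, but the genes called changed. With library size alone the age test lost Rab32 (edgeR adjusted p = 0.0856). It then called 1 other Rab gene, Rab6, which was higher (0.0272), beside 707 of all genes called higher and 182 lower. In the age test (1 Rab gene called), 3 were called with DESeq2's size factors, 4 with DESeq2, 3 with no filter, 3 in the genes of the authors' filtered table, 2 with log2 library size as a covariate, 2 with a linear term alone, and 1 to 2 when 1 library was left out. For day 40 against day 10 (2 called), 1 was called with library size alone (Rab6, higher) and 5 with DESeq2 (Rab4, Rab6, Rab7, Rab26 and Rab32). DESeq2 called 1577 of all 10678 genes there, against 1109 with edgeR, and 1486 in the age test, against 892. At day 40, 0 Rab genes were called with the no-feature ratio as a covariate (edgeR, 3 at an unadjusted p under 0.05). The count was also 0 with the libraries of those 2 ages alone (edgeR, 5 at an unadjusted p under 0.05), and 0 to 3 when 1 library was left out. For day 25 against day 10 (1 called), 0 were called with library size alone (5 at an unadjusted p under 0.05), 2 with DESeq2, and 0 to 1 when 1 library was left out, where the losses came without day 10 library 1, day 25 library 1 or day 25 library 3. For day 30 against day 10 (0 called), DESeq2 and the fit with no filter each called 1, Rab32. There DESeq2 called 376 of all 10678 genes, and the fit with no filter called 403 of 15204. Where leaving out a library left 1 at day 30, that library is assumed to vary like the rest. Of the 73 regulators and effectors (2 called in each test), edgeR called 0 in the age test with the no-feature covariate (7 at an unadjusted p under 0.05) and 0 at day 40 (2 at an unadjusted p under 0.05), and 0 to 2 and 0 to 3 when 1 library was left out. The cause of these changes was not tested.

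With the number in the column name as a replicate block, 1 Rab gene was called at day 40 against day 10, Rab26, and Rab32 had an adjusted p of 0.0613, while in the age test RabGGTa had 0.0509 and Sec5 0.0679. The numbers share no stated animal, batch or day. Same-numbered libraries had correlations of their deviations of -0.16 to 0.13, median -0.03 over 26 pairs, and 0 of 14 libraries correlated best with their own number.

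All-gene counts moved too. Library size alone shifted the median log2 change of all genes by 0.12 in the age test and 0.11 at day 40, and the age test then called 707 genes higher and 182 lower, against 525 and 367 with TMM, and 773 and 323 at day 40, against 615 and 494. DESeq2 called 1486 genes in the age test, and the no-feature covariate left 436 there and 197 at day 40. At day 25 the count was 104, and it was 198 with library size alone, 397 with DESeq2, 460 with no filter and 51 with the block. Depth limits RabX2, RabX5, Rab23 and Rab27 most.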
